A study of Mus musculus with 6 samples.

Results

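The polyol pathway turns glucose into fructose. Aldose reductase, encoded in mouse by Akr1b3, uses NADPH to reduce glucose to sorbitol, and sorbitol dehydrogenase, encoded by Sord, oxidises sorbitol to fructose with NAD+. Aldose reductase belongs to the aldo-keto reductases, a superfamily of NADPH-dependent enzymes that also reduce reactive aldehydes, such as those formed when membrane lipids are oxidised. Its gene is a known target of the tonicity factor NFAT5 in cells under hyperosmotic stress, where sorbitol serves as an osmolyte. The 6 genes described here are Akr1b3, its paralogues Akr1b8 and Akr1b10, the aldehyde reductase gene Akr1a1, the 1,5-anhydrofructose reductase gene Akr1e1, and Sord. They were chosen by gene name, 1 row each, from the 54433 genes of the deposited table, and with the difference between the groups already known. That difference is therefore given for the 6 genes as a description, with no p-value.

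Messenger RNA was sequenced in MC3T3-E1, an osteoblast-like mouse line. The FR libraries came from cells adapted in culture to fluoride along a gradient of 10 ppm and labelled as resistant to 30 ppm (n = 3). The WT libraries came from wild-type cells of the line in Dulbecco's modified Eagle medium (n = 3). The labels describe the FR samples as under fluoride, so resistance and exposure cannot be told apart, and they do not say whether FR cells were 1 clone or whether libraries of a group were separate cultures. P-values then measure only the spread between these libraries, which may be technical. The series title speaks of osteoblasts from mice, and the sample labels, which are followed here, of a cell line.

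Totals were 19246119 to 25185697 expected counts in the FR libraries and 25700497 to 27140662 in the WT libraries, and 3 counts in a library equalled 0.110 to 0.156 CPM, the count scaled to a library size adjusted by TMM. Of the 8 osteoblast markers looked up, Col1a1, Col1a2, Spp1 and Runx2 were well measured, Sp7, Alpl and Bglap had at most 8 counts in any library, and Ibsp was at 0 in every library. Their sum was 4155 to 4203 CPM in FR and 15643 to 15943 CPM in WT. Col1a1, Col1a2, Spp1 and Runx2 were each called lower in FR. Col1a1 averaged 635 CPM in FR and 5055 CPM in WT, and Runx2 averaged 57.2 CPM in FR and 69.8 CPM in WT. The summed level of 5 macrophage and haematopoietic markers was 8.95 to 10.5 CPM in FR and 0.780 to 1.55 CPM in WT. Both markers of that list that could be tested were called higher in FR: Csf1r averaged 7.14 CPM in FR and 0.587 CPM in WT, and Cd68 averaged 2.26 CPM in FR and 0.467 CPM in WT. Ptprc, Adgre1 and Itgam had at most 5 counts in any library. The part of the osteoblast and macrophage markers in the results below was not tested. Summed endothelial, epithelial and adipocyte markers stayed at or below 1.66 CPM in every library. Of these, Fabp4 was called higher in FR, at 1.31 CPM in FR and 0.738 CPM in WT, and Cdh5 and Cdh1 were not called. Of all tested genes, 34.6% were called higher and 35.5% lower in FR. In bulk RNA, more cells that express a gene and more RNA per cell cannot be told apart.

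Akr1b3, Akr1b8, Akr1b10 and the related Akr1b7, the gene of the mouse vas deferens protein, lie next to each other in that order on chromosome 6, by the GENCODE M21 annotation. Akr1b3 is on the minus strand and the other 3 are on the plus strand. The 4 coding sequences each have 951 bases. Akr1b3 was identical to the other 3 at 71.7% to 72.5% of aligned positions, whereas Akr1b8 and Akr1b10 were identical at 84.8% and Akr1b10 and Akr1b7 at 89.3%. Akr1a1, with 978 coding bases, matched the 4 Akr1b genes at 57.4% to 59.2%, and Akr1e1, with 906, at 60.5% to 63.7%. The longest run shared by Akr1b8 and Akr1b10 was 80 bases, at coding positions 475 to 554 counted from the start codon. It is shown because a read inside it cannot be given to either gene from its own sequence, while Akr1b3 differs there at 18 positions and Akr1b7 at 3. Capitals mark the bases that differ from Akr1b8, in the coding direction and as in the GENCODE M21 transcripts.
Akr1b3: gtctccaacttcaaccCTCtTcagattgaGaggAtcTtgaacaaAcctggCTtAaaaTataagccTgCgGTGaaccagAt
Akr1b8: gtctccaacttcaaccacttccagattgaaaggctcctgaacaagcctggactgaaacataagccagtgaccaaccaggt
Akr1b10: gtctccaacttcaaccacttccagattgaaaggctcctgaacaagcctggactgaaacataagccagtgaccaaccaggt
Akr1b7: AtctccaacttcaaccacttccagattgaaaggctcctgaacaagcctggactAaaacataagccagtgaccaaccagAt

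All 6 genes passed the filter on low counts. By the edgeR quasi-likelihood test with adjustment over all genes, 3 of the 6 (Akr1b3, Akr1b8 and Akr1a1) were called higher in FR, 1 (Akr1b10) lower, and 2 (Akr1e1 and Sord) were not called. These calls, here and below, only describe the 6 genes, since they were chosen with the difference known. Among all 14889 genes tested, 70.1% were called, 34.6% higher and 35.5% lower in FR. The CPM of the groups did not overlap for 5 of the 6 genes, beside 72.4% of all tested genes. The median log2 fold change was 0.094 over the 6 genes and 0.0029 over all tested genes. Akr1b3 had the largest fold change of the 6 and Akr1b10 the largest in the other direction.

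Akr1b3, the aldose reductase gene (ENSMUSG00000001642), had 419.8, 446.8 and 438.7 CPM in the FR libraries, against 123, 132 and 125 CPM in the WT libraries. Every FR library was above every WT library, by more than the spread within either group. The means were 435 ± 13.8 CPM in FR and 127 ± 4.83 CPM in WT (SD, n = 3 each), a 3.43-fold difference (log2 fold change 1.78 ± 0.03 SE). A larger change in either direction was found for 8.94% of all tested genes. On a scale per length, Akr1b3 was the gene at rank 226 of the 14889 tested in FR, at 606 ± 12.4 TPM, a value scaled to library size and gene length, and at rank 803 in WT, at 184 ± 6.21 TPM (SD, n = 3 each).

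Parts of the Akr1b3 transcript also occur in other genes, and the count of Akr1b3 rests on how RSEM shares reads among such genes. Of the 50-base windows of the Akr1b3 transcript, 86.2% also occur in a transcript of another gene in GENCODE M21, and of the 150-base windows 62.6%. Each of these windows falls in Gm38056, Gm6644, Gm6736, Gm12138 or Gm43855. They are called copies or pseudogenes here because of the shared windows, and their gene type was not looked up. The first 4 of these rows were also called higher in FR by edgeR. Reads that match Akr1b3 can be counted in them, so these calls and their p-values are not independent of the Akr1b3 count. Gm38056 averaged 66.8 ± 1.99 CPM in FR and 7.39 ± 0.331 CPM in WT (SD, n = 3 each; log2 fold change 3.17 ± 0.06 SE, adjusted p = 9.42e-27), and Gm6644 averaged 27.02 ± 2.21 CPM in FR and 2.56 ± 0.937 CPM in WT (log2 fold change 3.40 ± 0.20 SE, adjusted p = 1.15e-06). Gm43855 shared only 18 of the 50-base windows and none of the 150-base windows, and was at 0 in every library.

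These 5 rows together held 18.8% to 19.9% of the counts of Akr1b3 and its copies in the FR libraries and 8.03% to 8.96% in the WT libraries. Summed with them, Akr1b3 came to 539.6 ± 13.6 CPM in FR and 138 ± 5.13 CPM in WT (SD, n = 3 each), a 3.90-fold difference in the means. The sum kept the direction of Akr1b3 alone, with a log2 fold change of 1.96 ± 0.03 SE in edgeR. Whether any copy is transcribed on its own was not tested. None of the 50-base windows of Akr1b3 occurred in Akr1b8, Akr1b10 or Akr1b7.

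**Figure D1:**
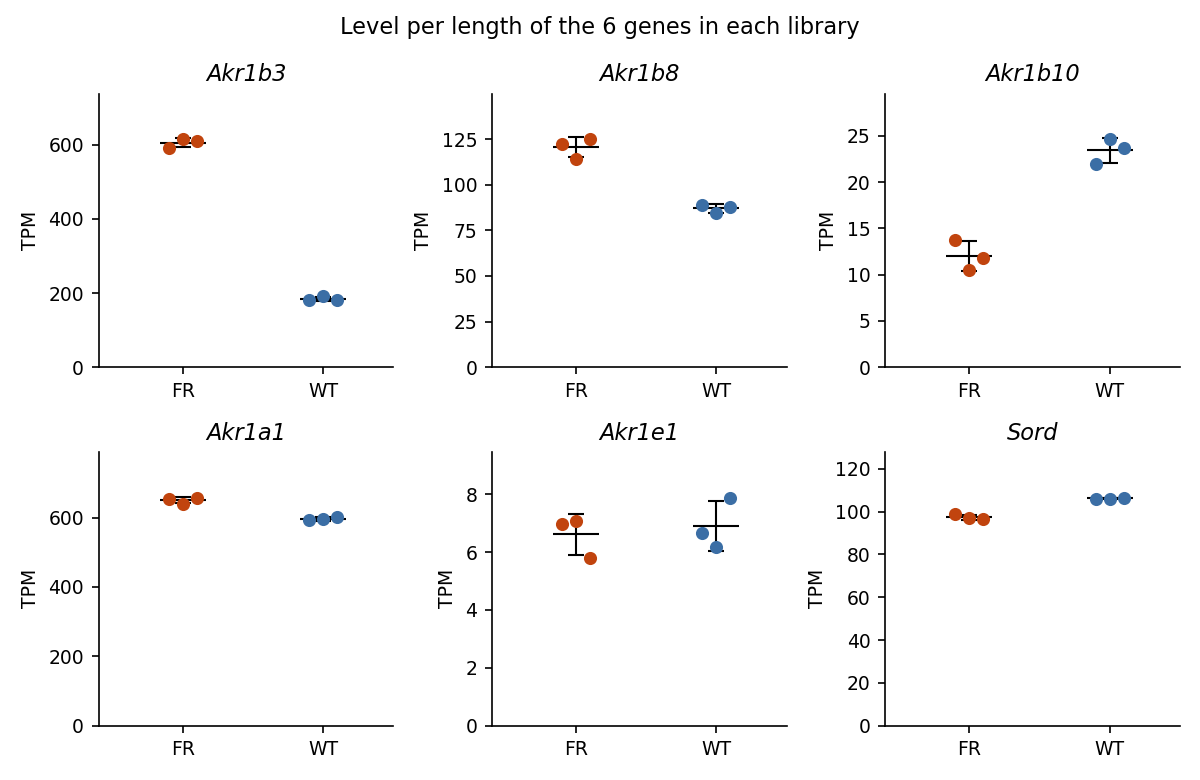
Level of each of the 6 genes in TPM, with FR on the left and WT on the right of each panel. Points are libraries, bars are the mean and SD of 3, and each vertical axis starts at 0 with its own range. Akr1b3 stands at 592 to 615 TPM in FR and 180.4 to 191 TPM in WT, while Akr1e1 overlaps between the groups.

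Akr1b8 (ENSMUSG00000029762), first known in mouse fibroblasts as a gene induced by fibroblast growth factor, had 85.1, 81.2 and 87.9 CPM in the FR libraries, against 59.3, 57.0 and 59.7 CPM in the WT libraries. The groups did not overlap. The means were 84.7 ± 3.34 CPM in FR and 58.7 ± 1.46 CPM in WT (SD, n = 3 each), a 1.44-fold difference (log2 fold change 0.53 ± 0.04 SE).

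Its neighbour Akr1b10 (ENSMUSG00000061758), named after a human reductase of retinaldehyde and other carbonyls, went the other way. It had 9.66, 7.55 and 8.41 CPM in the FR libraries, against 14.8, 16.8 and 16.2 CPM in the WT libraries, and again no FR library reached a WT one. The means were 8.54 ± 1.06 CPM in FR and 15.9 ± 1.07 CPM in WT (SD, n = 3 each), so WT was 1.88-fold higher (log2 fold change −0.91 ± 0.10 SE). Of the 50-base windows of these genes, 3.21% for Akr1b8 and 3.18% for Akr1b10 occur in another gene, and none of the 150-base windows do. Values of both rows depend to that extent on the estimate. The ratio of Akr1b8 to Akr1b10 in TPM was 10.1 ± 1.06 in FR and 3.73 ± 0.319 in WT (SD, n = 3 each).

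Upstream sequence of this pair is shown because the genes are neighbours on the same strand with differences of opposite sign. RefSeq promoters were at hand for 5 of the 6 genes, all but Akr1b3. The 250 bases before each start site are given 5′ to 3′ on the plus strand of GRCm38.p6, another build than the GRCm39 used for the counts. Akr1b8 is at chr6:34353896-34354145 and Akr1b10 at chr6:34383997-34384246. Capitals mark the runs of at least 8 bases that occur in both windows, 3 runs that cover 26 of the 250 bases, the longest of 9.
Akr1b8: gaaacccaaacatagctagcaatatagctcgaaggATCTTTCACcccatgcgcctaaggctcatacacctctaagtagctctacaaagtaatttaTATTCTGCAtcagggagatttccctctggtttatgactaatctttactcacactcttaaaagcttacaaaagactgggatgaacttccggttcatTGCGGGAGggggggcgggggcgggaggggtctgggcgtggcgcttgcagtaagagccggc
Akr1b10: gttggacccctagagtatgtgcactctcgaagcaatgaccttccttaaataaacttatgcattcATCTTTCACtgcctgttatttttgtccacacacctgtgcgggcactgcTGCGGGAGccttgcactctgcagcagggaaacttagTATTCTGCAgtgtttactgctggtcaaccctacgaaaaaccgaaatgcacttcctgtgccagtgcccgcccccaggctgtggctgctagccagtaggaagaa

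Promoter windows of 300 bases, 250 before and 50 after the start, were searched on both strands for 3 motifs. These were the core of the antioxidant response element, TGACNNNGC, the AP-1 element, TGANTCA, which can overlap the first, and the tonicity element TonE by its consensus. None of the 5 windows held any of them. Over all 32851 promoter windows the shares with a match were 12.4% for the antioxidant response element core, 7.81% for AP-1 and 4.96% for TonE. No match says only that these letters are not in these windows.

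Akr1a1 (ENSMUSG00000028692), whose aldehyde reductase acts in mouse on glucuronate in the synthesis of vitamin C, had 474, 476 and 483 CPM in the FR libraries, against 412, 421 and 427 CPM in the WT libraries. The groups did not overlap, but they lay close together. The means were 478 ± 4.95 CPM in FR and 420.1 ± 7.37 CPM in WT (SD, n = 3 each), a 1.14-fold difference (log2 fold change 0.19 ± 0.02 SE). No 50-base window of its transcript occurs in another gene.

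Akr1e1 (ENSMUSG00000045410), whose enzyme reduces 1,5-anhydrofructose, had 12.4, 12.8 and 10.4 CPM in the FR libraries, against 11.3, 10.7 and 13.7 CPM in the WT libraries. These ranges overlapped. The means were 11.9 ± 1.29 CPM in FR and 11.9 ± 1.57 CPM in WT (SD, n = 3 each), with a log2 fold change of 0.0016 ± 0.10 SE.

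Sord (ENSMUSG00000027227), the second step of the polyol pathway, had 118.8, 119.7 and 117.5 CPM in the FR libraries, against 122, 124 and 125 CPM in the WT libraries. All FR libraries were below all WT libraries, by a small margin. The means were 118.6 ± 1.09 CPM in FR and 124 ± 1.48 CPM in WT (SD, n = 3 each; log2 fold change −0.06 ± 0.03 SE). Without WT replicate 1 the log2 fold change was −0.085, and Sord then counted among the genes called lower. Another gene, Gm6652, shares 31.3% of the 50-base windows of Sord and was at 0 in every library, so no counts were given to it. On the TPM scale Sord was at 97.5 ± 1.17 in FR and 106 ± 0.331 in WT (SD, n = 3 each), so WT was 1.09-fold higher in TPM, beside 1.04-fold by the fit on counts.

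Both steps of the polyol pathway can be set side by side per length. The Akr1b3 level in TPM was 6.22 ± 0.195 times that of Sord in FR and 1.73 ± 0.0627 times in WT (SD, n = 3 each), and the libraries of the groups did not overlap. In FR the order of levels was Akr1a1 (650.2 ± 9.37 TPM), Akr1b3, Akr1b8 (121 ± 5.62 TPM), Sord, Akr1b10 (12.1 ± 1.64 TPM) and Akr1e1 (6.62 ± 0.705 TPM). In WT it was Akr1a1 (596 ± 4.62 TPM), Akr1b3, Sord, Akr1b8 (87.1 ± 2.51 TPM), Akr1b10 (23.4 ± 1.36 TPM) and Akr1e1 (6.90 ± 0.878 TPM). No library value of a gene overlapped those of the next gene in either order. On these rows, Akr1b8 and Sord were the 2 genes that changed places. This order, the ratio to Sord and the Akr1b shares below use the Akr1b3 row without its copies. Summed with them, Akr1b3 came to 539.6 CPM in FR, above Akr1a1 at 478 CPM. In WT the sum was 138 CPM, below Akr1a1 at 420.1 CPM. By CPM, which is not scaled to length, Akr1b3 with its copies and Akr1a1 thus changed places. The sum was not computed in TPM, so its place in the order above is not given.

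The 4 Akr1b genes summed to 739 ± 9.80 TPM in FR and 296 ± 4.89 TPM in WT (SD, n = 3 each). Akr1b3 made up 82.0% ± 0.973 of that sum in FR and 62.3% ± 1.06 in WT. Akr1b8 made up 16.3% ± 0.770 in FR and 29.5% ± 1.32 in WT although its own level was higher in FR, and Akr1b10 made up 1.63% ± 0.239 in FR and 7.92% ± 0.371 in WT. Akr1b7 was near the detection limit, at 0.396 ± 0.0309 CPM in FR and 0.570 ± 0.123 CPM in WT.

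**Figure D2:**
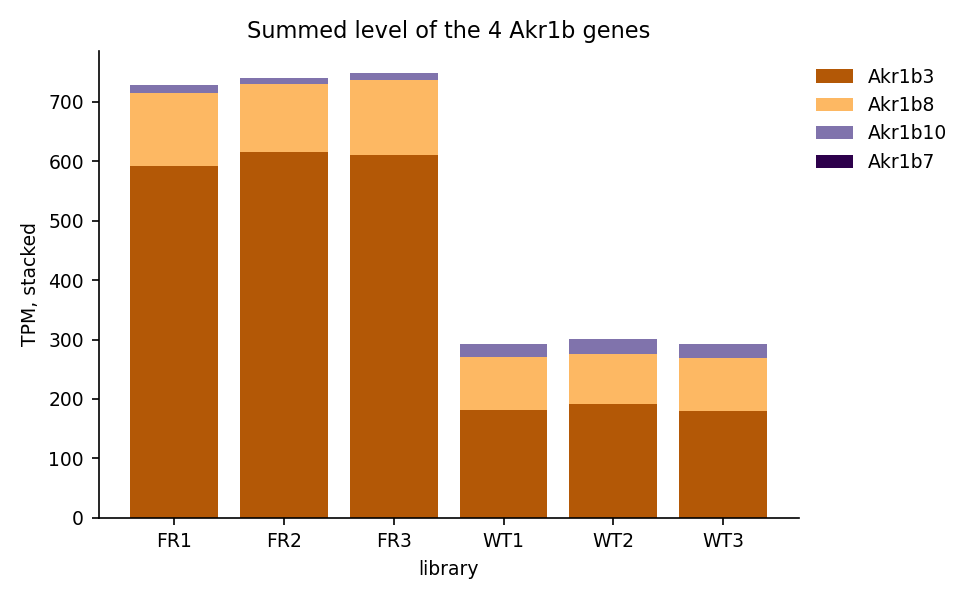
Stacked TPM of Akr1b3, Akr1b8, Akr1b10 and Akr1b7 in each library, FR on the left and WT on the right. The sums run from 729 to 748 TPM in FR and from 293 to 301 TPM in WT, and nearly all of the gap between the groups lies in Akr1b3, while the Akr1b7 segment is too thin to see.

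All gene lists from here on were drawn up with earlier results of these data known. Their shares called and adjusted p-values are therefore descriptions. Most other aldo-keto reductases that could be tested were higher in FR. Of 17 names, 15 were in the table and 9 were testable, of which 6 rose, 1 fell and 2 were not called (77.8% called, beside 70.1% of all genes; median log2 fold change 0.62). Of all tested genes, 34.6% were called higher and 35.5% lower in FR. The first 3 of the list by adjusted p all rose. Kcnab2 and Kcnab1 encode beta subunits of potassium channels that belong to the superfamily. Kcnab2 averaged 39.2 ± 1.60 CPM in FR and 25.6 ± 0.843 CPM in WT (SD, n = 3 each; edgeR adjusted p = 3.85e-11), and Kcnab1 averaged 6.96 ± 0.714 CPM in FR and 2.46 ± 0.464 CPM in WT (edgeR adjusted p = 1.54e-09). Akr1c14, a hydroxysteroid dehydrogenase, averaged 18.9 ± 1.29 CPM in FR and 12.0 ± 0.586 CPM in WT (edgeR adjusted p = 3.87e-08).

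The 1 fall in this list was Kcnab3, at 0.582 ± 0.109 CPM in FR and 1.15 ± 0.192 CPM in WT (SD, n = 3 each; edgeR adjusted p = 0.0116), and without WT replicate 3 no gene of the list was called lower. Akr7a5, an aldehyde reductase, did not pass, at 17.4 ± 1.47 CPM in FR and 16.6 ± 0.726 CPM in WT (edgeR adjusted p = 0.398). Akr1c12 and Akr1c13 were both called higher, at 7.54 and 7.20 CPM in FR and 4.12 and 5.00 CPM in WT, but they are close copies with fractional counts, so the split of reads between them is uncertain. Akr1c18, named after its values were seen, had the largest log2 fold change of the list, 3.11 ± 0.50 SE, on 18, 22 and 27 counts in FR and 6, 2 and 1 in WT.

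**Figure D3:**
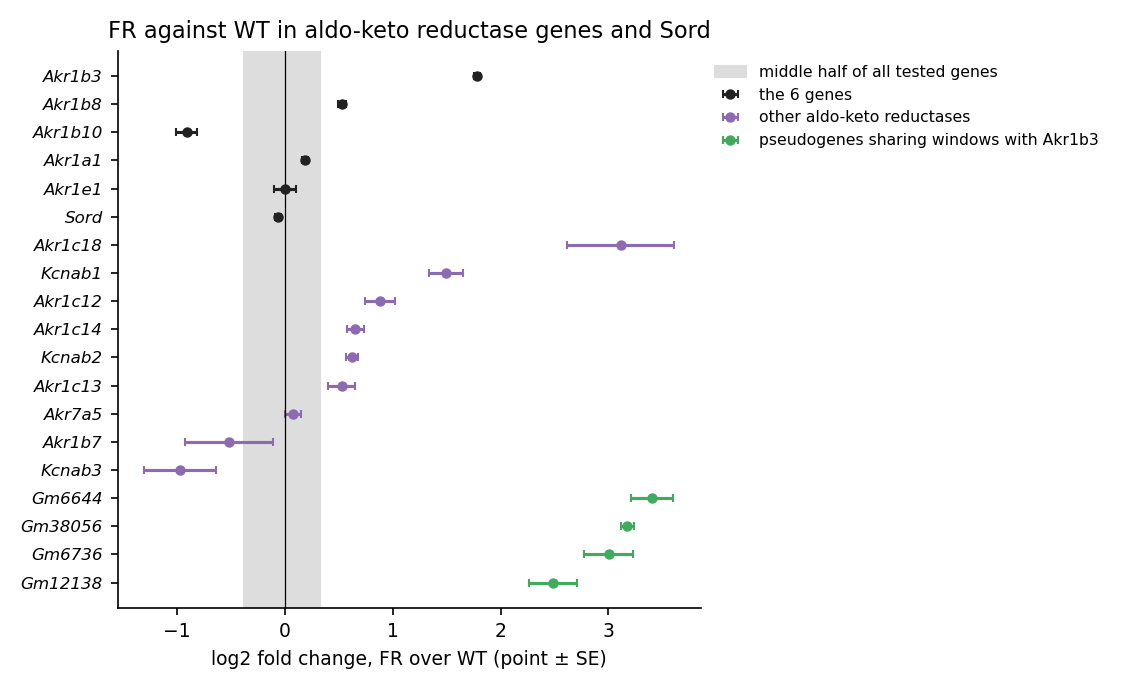
Log2 fold change of FR over WT with its SE for the 6 genes (black), the 9 other tested aldo-keto reductases (violet) and the 4 tested pseudogenes that share windows with Akr1b3 (green). The grey band runs from the lower to the upper quartile of all tested genes, −0.38 to 0.32, and Akr1b3 at 1.78 and its copies at 2.48 to 3.40 lie to the right of it.

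The genes around the polyol pathway, in the use of fructose and the conversion of glucuronate, did not move one way. Among the 15 testable genes of 21 listed, 5 rose, 4 fell and 6 were not called (60.0% called, beside 70.1% of all genes; median log2 fold change −0.04). Khk encodes ketohexokinase, which phosphorylates fructose, and rose at a low level, to 2.17 ± 0.542 CPM in FR, against 0.638 ± 0.134 CPM in WT (SD, n = 3 each; edgeR adjusted p = 5.21e-06). Dcxr, an L-xylulose reductase of the glucuronate route, fell to 11.8 ± 1.44 CPM in FR, against 26.1 ± 1.11 CPM in WT (edgeR adjusted p = 1.79e-13). The glycolytic genes Gpi1 and Aldoa rose by log2 0.33 ± 0.02 SE and 0.21 ± 0.02 SE (edgeR adjusted p = 9.58e-13 and 4.52e-09).

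Most other genes of aldehyde and carbonyl metabolism were lower in FR. Of all tested genes, 35.5% were called lower and 34.6% higher. Among the 26 testable genes of 31 listed, 7 rose, 16 fell and 3 were not called (88.5% called, beside 70.1% of all genes; median log2 fold change −0.44). Cbr2, a carbonyl reductase, fell to 62.9 ± 0.436 CPM in FR, against 162 ± 4.74 CPM in WT (SD, n = 3 each; edgeR adjusted p = 7.47e-24). Aldh2, the mitochondrial aldehyde dehydrogenase, fell to 128 ± 3.28 CPM in FR, against 194 ± 4.55 CPM in WT (edgeR adjusted p = 3.08e-16). Adh7, an alcohol and retinol dehydrogenase, fell to 35.2 ± 0.824 CPM in FR, against 62.9 ± 1.04 CPM in WT (edgeR adjusted p = 3.70e-16). Park7, a protein linked to oxidative stress and glyoxals, rose to 104.5 ± 4.44 CPM in FR, against 84.1 ± 4.80 CPM in WT (edgeR adjusted p = 2.90e-07).

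Osmolyte genes and NFAT5 were examined because aldose reductase shares that control in other cells. Among the 13 testable genes of 15 listed, 6 rose, 3 fell and 4 were not called (69.2% called, beside 70.1% of all genes; median log2 fold change 0.095). Nfat5 itself rose a little, to 318 ± 10.3 CPM in FR, against 274 ± 9.84 CPM in WT (SD, n = 3 each; edgeR adjusted p = 3.35e-07). The myo-inositol transporter gene Slc5a3 rose to 96.9 ± 6.53 CPM in FR, against 73.5 ± 2.23 CPM in WT (edgeR adjusted p = 1.84e-08), and Isyna1, which makes inositol phosphate from glucose phosphate, rose to 35.9 ± 0.994 CPM in FR, against 11.7 ± 1.62 CPM in WT (edgeR adjusted p = 3.81e-16). The taurine transporter gene Slc6a6 fell to 196 ± 1.63 CPM in FR, against 311 ± 1.49 CPM in WT (edgeR adjusted p = 4.79e-19). Osr1, listed with this group, fell to 44.5 ± 0.767 CPM in FR, against 85.7 ± 2.27 CPM in WT (edgeR adjusted p = 1.96e-18), but in this table the symbol stands for a zinc finger transcription factor and not for the kinase of osmotic stress with the same abbreviation. The 3 falls, the share called and the median given above include Osr1.

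Aldo-keto reductases draw on NADPH, and some are targets of the transcription factor Nrf2. Of the 24 genes for NADPH supply and of the Nrf2 group each was testable, and 14 rose, 8 fell and 2 were not called (91.7% called, beside 70.1% of all genes; median log2 fold change 0.14). Nadk2, the mitochondrial NAD kinase gene, rose to 202 ± 2.60 CPM in FR, against 67.5 ± 3.07 CPM in WT (SD, n = 3 each; edgeR adjusted p = 2.08e-25), and Txnrd1, a thioredoxin reductase, rose to 444.5 ± 5.10 CPM in FR, against 269.7 ± 4.91 CPM in WT (edgeR adjusted p = 3.64e-20). Nqo1, a quinone reductase and common marker of Nrf2 activity, fell to 22.6 ± 0.331 CPM in FR, against 50.9 ± 0.467 CPM in WT (edgeR adjusted p = 3.00e-18). Nfe2l2, which encodes Nrf2, fell to 86.4 ± 2.98 CPM in FR, against 127 ± 4.74 CPM in WT (edgeR adjusted p = 5.47e-14). The Nrf2 group did not move one way. Txnrd1 also belongs to it, and with Txnrd1 the genes Abcc1, Srxn1, Gclm, Gclc and Gsr were called higher in FR. Slc7a11, Hmox1 and Osgin1 were called lower, as was Nqo1. The 91.7% called was not compared with genes of a like level. Small changes were called in this list, such as a log2 fold change of 0.12 ± 0.04 SE for Gsr.

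**Figure D4:**
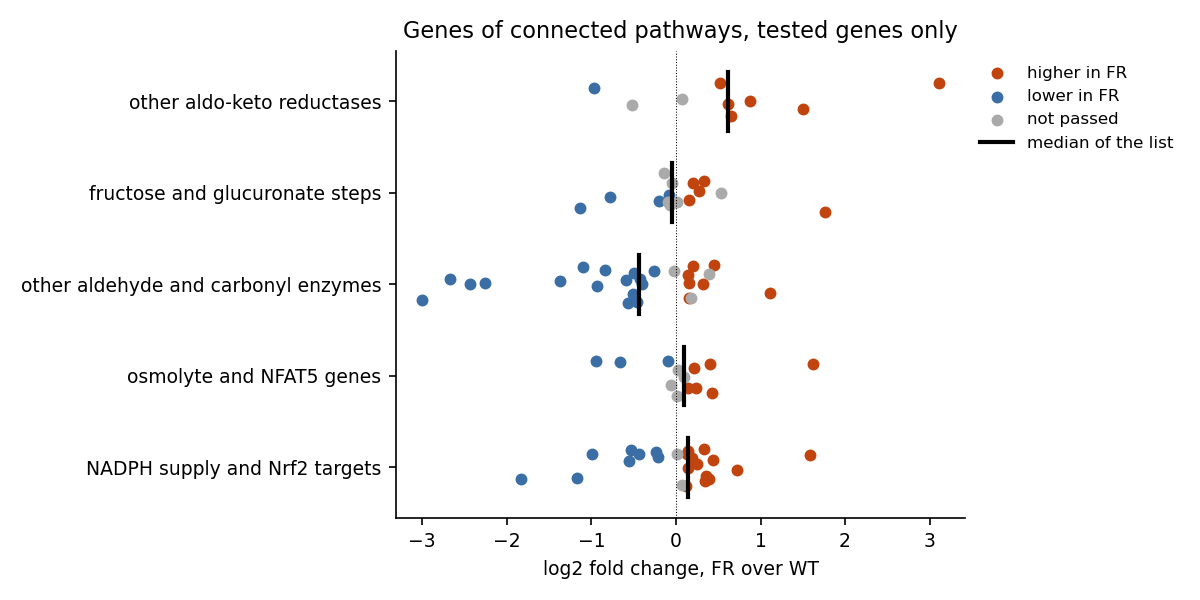
Log2 fold change of FR over WT for each tested gene of the 5 connected lists, with genes called higher in FR, called lower and not called in separate colours and a black bar at the median of the list. Medians run from −0.44 for other aldehyde and carbonyl enzymes to 0.62 for other aldo-keto reductases, and each list holds genes called in both directions.

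The annotation deposited with the table puts at least 2 of the 6 genes into each of 5 pathways. Pentose and glucuronate interconversions held 5 of them, all but Akr1e1, and of its 17 other tested genes 5 were higher, 5 lower and 7 not called in FR. Fructose and mannose metabolism held Sord and the 3 Akr1b genes, with 13 of 31 other genes higher and 11 lower. Glycerolipid metabolism held Akr1a1 and the 3 Akr1b genes, with 16 of 45 others higher and 18 lower. Galactose metabolism and folate biosynthesis held the 3 Akr1b genes, with 10 of 27 others higher and 12 lower for galactose metabolism and 11 of 19 others higher and 2 lower for folate biosynthesis. The share of other genes called ran from 58.8% to 81.5% over the 5 pathways, around the 70.1% of all genes.

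The measure of likeness across the libraries was the root mean square difference of centred log2 CPM over 6 libraries. Symbols of the Gm, Rik, MSTRG or ENSMUSG kind were left out, and with them the copies of Akr1b3. The genes most like each of the 6 were sought among the remaining well-measured genes. For Akr1b3 they were the prolactin family gene Prl2c2 (difference 0.048) and the ribosomal pseudogene Rps26-ps1 (0.060), for Akr1b8 Hhipl1 (0.0092) and Epb41l3 (0.015), and for Akr1b10 Gskip (0.043) and Mtm1 (0.058). Those for Akr1a1 were Rif1 (0.010) and Tnrc18 (0.011), for Akr1e1 Tmppe (0.043) and Zranb3 (0.053), and for Sord Brip1os (0.0056) and Ctsa (0.0086). With 2 groups, such likeness mostly restates a like difference between FR and WT. Prl2c2, for example, averaged 1002 ± 39.5 CPM in FR and 289 ± 5.76 CPM in WT (SD, n = 3 each; log2 fold change 1.79 ± 0.03 SE).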

How the data were processed

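Poly(A) RNA of 6 libraries was sequenced as paired ends, per the labels' protocols, with no statement on strand. The authors deposited expected counts per gene, not scaled to depth, made with fastp, HISAT and RSEM on GRCm39 per the submitters' processing notes. Versions and the annotation release are not given in the sources used here. Counts were rounded, filtered with filterByExpr of edgeR 4.0.16 (R 4.3.3) and scaled by TMM. The difference between FR and WT was tested with edgeR's quasi-likelihood F-test in its robust form, using Benjamini-Hochberg adjustment over 14889 genes and a threshold of 0.05. CPM used totals adjusted by TMM, and TPM used the gene length deposited in the table and each library's sum of counts per length. The ratio of FR to WT in TPM was 0.959 to 0.961 times that in CPM for the 6 genes. Where a symbol had 2 rows, the row with more counts was used. The value given for 3 counts is a conversion to CPM and measures no error, whereas SDs and SEs include the spread between libraries. Each SE was the absolute log2 fold change divided by the square root of the F statistic.

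Members and lists were chosen with earlier results of these data known. Genes named are the 6, the 3 of smallest adjusted p of each list with the first in the other direction where those share a sign, 5 further names (Akr7a5, Khk, Nfat5, Slc5a3 and Nfe2l2), and the 2 most like each of the 6, among genes with a mean of at least 5 CPM (prior count 2). Symbols of the Gm, Rik, MSTRG or ENSMUSG kind were left out of the search for like genes. Neighbouring genes, pseudogenes, Akr1c genes and genes of the Nrf2 group named beyond these rules were chosen after their values were seen. Transcripts were from GENCODE M21 and promoters from RefSeq, both GRCm38. On simulated data of this design, 64% of genes changed 1.2-fold and 94% of genes changed 2-fold were called among 14677 genes. Only 50 genes per fold size were changed there, with 1 dispersion for all genes. In the data 70.1% of genes were called, so those rates need not hold for this contrast. Alternatives tried were median-of-ratios factors, library size alone, no filter, edgeR without robust fitting, a minimum mean of 1 CPM, DESeq2 1.42.0, limma-voom (limma 3.58.1), the replicate number as a block and each library left out. Figures used matplotlib 3.10.9.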

Additional observations from a re-analysis of the deposited data

How the results depend on the processing

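Over 14 other settings the log2 fold change ran from 1.75 to 1.80 for Akr1b3, 0.49 to 0.55 for Akr1b8, −1.01 to −0.83 for Akr1b10 and 0.16 to 0.19 for Akr1a1, and from −0.08 to 0.11 for Akr1e1, whose sign was not fixed. Summing Akr1b3 with its pseudogene copies, an alternative chosen after seeing the data, gave 1.96. Sord stood at −0.087 without a filter on low counts and between −0.085 and −0.058 with each library left out. It was called lower, for 5 of the 6 genes called in all, with library size alone, without a filter and without WT replicate 1, and the cause was not tested. Of the other aldo-keto reductases, 5 were called higher and 0 lower with a mean of at least 1 CPM, which removed Akr1c18 and Kcnab3 from testing. With each library left out, 0 to 1 were called lower. With the replicate number as a block, 5070 genes were higher and 5222 lower, Akr1b3 stood at 1.78, and no call among the 6 genes changed. Deviations of same-numbered libraries from their group means were correlated at −0.03 to −0.0039. The labels do not say whether the numbers pair libraries, and weak correlation within such small groups cannot settle it. Counts of the lists otherwise stayed within 1.5 times. No alternative scaling moved the median of all genes by more than 0.1 on the log2 scale.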

Other observations

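The 8 protein-coding genes nearest the Akr1b genes on chromosome 6, 4 on each side in the order of GENCODE M21, were chosen after values were seen. By edgeR, 5 of the 8 were called lower in FR, 1 was called higher and 2 were not called. Over all tested genes, 35.5% were called lower and 34.6% higher, 70.1% in all. Tmem140, a membrane protein gene, had the largest change of the 8, at 1.90 ± 0.448 CPM in FR and 9.29 ± 0.834 CPM in WT (SD, n = 3 each; log2 fold change −2.30 ± 0.15 SE, edgeR adjusted p = 9.31e-14). Cald1, the caldesmon gene, averaged 574 ± 6.32 CPM in FR and 1244 ± 17.9 CPM in WT (edgeR adjusted p = 1.00e-25). The log2 fold changes of the other 3 lower genes were −1.02 for Agbl3, −0.46 for Exoc4 and −0.31 for Slc35b4. Bpgm, the bisphosphoglycerate mutase gene, was the 1 called higher, at 33.6 ± 1.69 CPM in FR and 22.6 ± 1.14 CPM in WT (edgeR adjusted p = 1.05e-09). Chchd3 and Lrguk were not called, with log2 fold changes of 0.0085 and −0.00053.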
